A study of Mus musculus with 10 samples.

Results

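BAF complexes, also called SWI/SNF complexes, are machines that use ATP to slide or evict nucleosomes and so open chromatin. Each holds either of a pair of ATPases, SMARCA4 (BRG1) or SMARCA2 (BRM), a core of SMARCB1, SMARCC and SMARCD subunits, and in canonical BAF an ARID1A or ARID1B subunit and a DPF subunit, whose paired PHD fingers read acetylated histone tails. In mice, SMARCA4 stored in the egg is known to be needed when the embryo first switches on its own genes. The genes described here are 10 of the 35501 genes in the data: the reader genes Dpf1, Dpf2 and Dpf3, the ATPase genes Smarca2 and Smarca4, the core genes Smarcb1, Smarcc1 and Smarcd1, and Arid1a and Arid1b. They were chosen by name after the TPM of Dpf3 had been seen to be lower in treated oocytes. That contrast chose the members, so the difference of Dpf3 between treated and control oocytes is given below as a description and not as a tested result.

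Each library held the RNA of a single mouse egg arrested in metaphase II, ready for fertilisation. There were 5 TubA libraries (0.1 µg/mL, for 16 h) and 5 control libraries, all from germinal vesicle oocytes of ICR mice aged 6 to 8 weeks that were matured in culture for 16 h. TubA commonly stands for tubastatin A, an inhibitor of the deacetylase HDAC6, but the labels do not spell it out. They name no animal or culture either, so n counts oocyte libraries, and the spread between them may be technical.

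Values are in TPM, the share of a library's transcripts that each transcript makes up after division by its length, scaled to sum to 1000000. A gene can therefore be compared with another gene, but a loss of RNA from the whole oocyte cannot be seen, and the depth behind a value is unknown. The labelled cell type carried its markers, with 8 oocyte genes that summed to between 24530 and 35470 TPM in TubA libraries and between 24440 and 34000 TPM in control libraries. The 8 cumulus and granulosa markers summed to 9.33 to 19.1 TPM with TubA and 8.25 to 14.0 TPM in control, with Fshr, Foxl2, Amh, Inhba and Tnfaip6 under 1 TPM throughout. Cyp19a1, the aromatase gene, made up most of that sum at 7.78 to 18.0 TPM with TubA and 6.60 to 13.1 TPM in control, while Has2 reached 1.51 TPM and Ptx3 1.03 TPM. Within the oocyte list the zona pellucida genes varied widely: Zp1 ranged 29.5-fold, Zp2 48.5-fold and Zp3 20.01-fold. All 3 were low in TubA replicate 2 (129, 206 and 749.8 TPM) and lowest in control replicate 1 (104.8, 93.1 and 406 TPM). The 6 theca and stroma markers summed to 4.22 to 13.1 and 3.09 to 16.7 TPM, and the 7 blood, immune and endothelial markers to 39.7 to 79.4 and 27.2 to 75.6 TPM, TubA first in each. These ranges overlapped between the groups in every list. In the last list Pecam1 stood at 17.5 to 32 TPM with TubA and 20.3 to 45.1 TPM in control. C1qb stood at 7.68 to 54.3 TPM with TubA and 2.91 to 42.5 TPM in control. The others of that list reached at most 14.9 TPM, with Ptprc and Cdh5 under 1 TPM throughout. Clustering of log2(TPM + 1) values over genes averaging 1 TPM or more split the libraries into 2 sets, each with both treatments. Set A held TubA replicates 1 and 2 with control replicates 1 to 3, and set B held TubA replicates 3 to 5 with control replicates 4 and 5.

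Most of the TPM listed under Dpf3 was assigned to a pair of short, incomplete transcript models. The rule by which reads were divided between overlapping models is unknown, so levels of single models are as the files assign them. Dpf3 lies on the minus strand of chromosome 12 (83213745 to 83487716, GRCm38, the assembly also called mm10). Its model Dpf3-202 has 3 exons and 587 bases, is annotated without a coding start, and ends in an exon of 391 bases (83260493 to 83260883) that lies in an intron of the full-length model Dpf3-207. Model Dpf3-203 has 7 exons and 1296 bases, also lacks its coding start, and ends in an exon (83269010 to 83269627) that Dpf3-207 skips but that the incomplete Dpf3-201 and the complete Dpf3-205 and Dpf3-206 enter by the same junction. All of these share the exon at 83272339 to 83272467 and part there. The coding bases on either side of that parting are shown because they mark the 3 kinds of ending, of which the Dpf3-203 kind does not tell incomplete from complete models, with the last 30 bases of the shared exon (chr12:83272339-83272368, minus strand) in lower case and the next 30 coding bases of each model in capitals, from the GENCODE M21 transcripts.
Dpf3-202: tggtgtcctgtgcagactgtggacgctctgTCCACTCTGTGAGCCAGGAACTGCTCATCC
Dpf3-203: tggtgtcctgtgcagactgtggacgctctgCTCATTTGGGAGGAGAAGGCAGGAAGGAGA
Dpf3-207: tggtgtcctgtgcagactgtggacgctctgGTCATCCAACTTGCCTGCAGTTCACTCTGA

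The capitals lie at chr12:83260854-83260883 for Dpf3-202, chr12:83269598-83269627 for Dpf3-203 and chr12:83226351-83226380 for Dpf3-207. After the junction, 47 coding bases remain in Dpf3-202, 200 in Dpf3-203 and 263 in Dpf3-207. Of the 31-base words of Dpf3-202, 70.2% occur in no other Dpf3 model, mostly because of its last exon, and none occurs in another gene listed above 0. Dpf3-203 has 14.8% of words of its own and likewise shares none with another gene listed above 0. Other genes were searched only as annotated transcripts listed above 0, so whether these words are unique in the genome was not examined. The complete models have few words of their own, 6.78% in Dpf3-205, 0% in Dpf3-206 and 0.258% in Dpf3-207. Of the words of Dpf3-207, 79.1% are in no incomplete model listed above 0, against 15.2% for Dpf3-206 and 9.51% for Dpf3-205. That count leaves out the incomplete Dpf3-204 (2940 bases), which has 0.206% of words of its own and was listed at 0 in every library. Among the Dpf3 models, reads were therefore easier to assign to Dpf3-202 than to tell between Dpf3-203, Dpf3-205 and Dpf3-206. Dpf3-207 was told apart from the incomplete models listed above 0, but only 0.258% of its words are in no other Dpf3 model.

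Dpf3-202 alone held between 76.9% and 87.3% of the TPM of Dpf3 in the 10 libraries, and with Dpf3-203 between 96.7% and 99.8%. Weighted by length, which is closer to a share of reads, Dpf3-202 held 59.03% to 75.4% and Dpf3-203 held 23.4% to 37.4%. The long-coding models, meaning those annotated as protein-coding, complete at both ends of the coding sequence and with at least 50% of the gene's longest coding length, are Dpf3-205, Dpf3-206 and Dpf3-207. Together they held between 0.161% and 1.11% of Dpf3. Their sum was 1.57, 1.51, 1.07, 1.80 and 1.20 TPM in TubA replicates 1 to 5, against 0.655, 0.683, 1.28, 1.25 and 1.08 TPM in control replicates 1 to 5. These complete models were thus listed at no more than 1.80 TPM in any library, while the gene as summed stood at 163 TPM or more. Apart from Dpf3-207, that low value rests on how reads shared with Dpf3-203 were divided. For Dpf3-207 it takes the incomplete Dpf3-204 to be at 0, as listed.

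**Figure D1:**
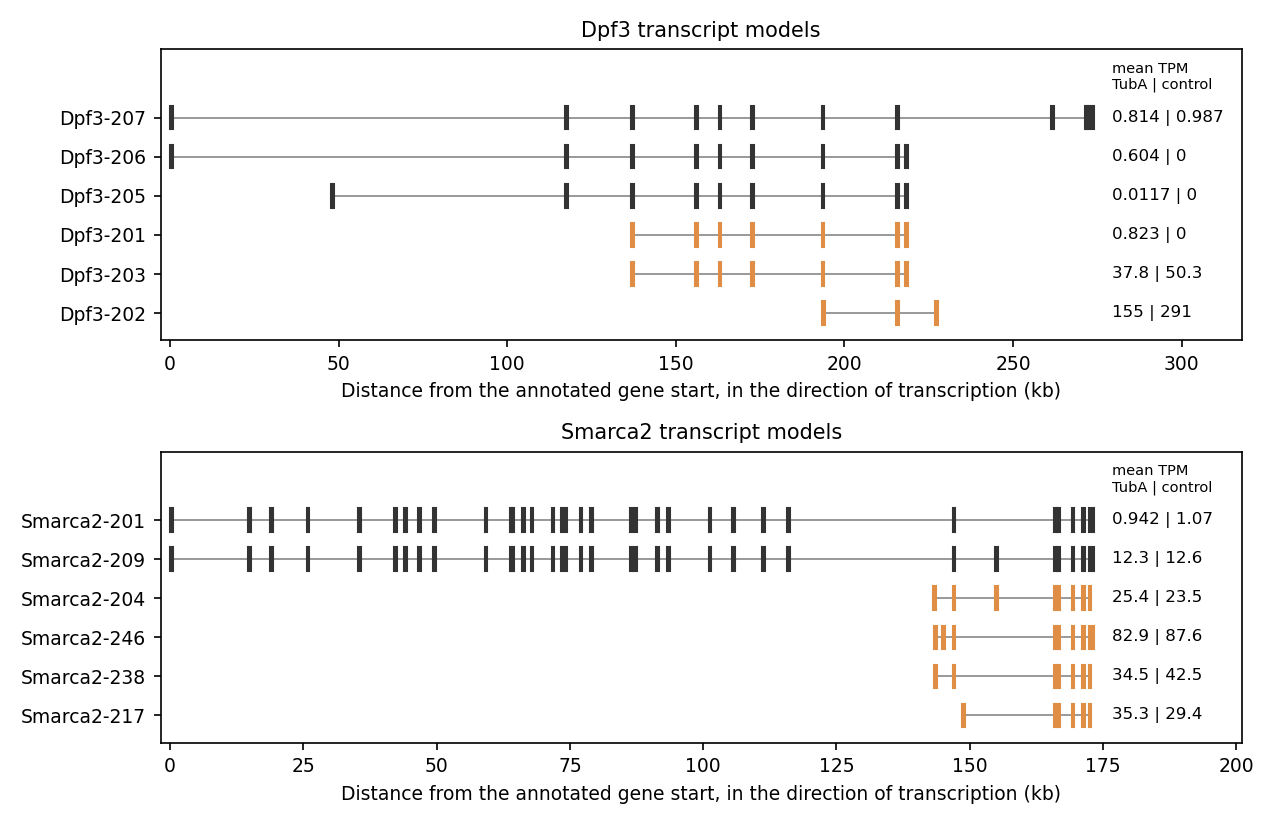
Exons of 6 models each of Dpf3 and Smarca2, by distance from the annotated gene start in kb along the direction of transcription, with mean TPM in TubA and control libraries (n = 5 each) at the right. Boxes are exons, with exons shorter than 0.3% of the gene drawn at that width, black for long-coding models and orange for the others. The abundant models are the orange ones, Dpf3-202 with 3 exons and the Smarca2 models that start in the last part of the gene.

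Summed over its models, Dpf3 stood at 200.5, 169, 219, 163 and 224.5 TPM in TubA replicates 1 to 5, against 269.9, 425, 417, 340.2 and 259 TPM in control replicates 1 to 5. The highest TubA value was thus under the lowest control value. The means were 195 ± 28.2 TPM with TubA and 342 ± 78.4 TPM in control (SD, n = 5 each), so that TubA libraries averaged 57.0% of control. The difference was -0.79 on the log2(TPM + 1) scale (limma standard error 0.19). The difference came to -0.98 among the libraries of set A and -0.57 among those of set B. These are parts of the same contrast and not separate tests of it.

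Most of the difference lay in Dpf3-202. That model stood at 160, 132, 178, 125 and 181 TPM in TubA replicates 1 to 5, against 222, 371, 347.5, 297 and 218 TPM in control replicates 1 to 5, with no overlap. Since Dpf3-202 held most of the TPM of Dpf3, this largely restates the contrast by which Dpf3 was picked. Dpf3-203 stood at 38.9, 31.8, 40.03, 35.9 and 42.2 TPM with TubA, against 47.5, 53.2, 68.4, 41.9 and 40.6 TPM in control. Here TubA replicate 5 lay above control replicates 4 and 5, so the groups overlapped. The ratio of Dpf3-202 to Dpf3-203 was 4.10 ± 0.363 with TubA and 5.84 ± 1.12 in control (SD, n = 5 each) and did not overlap between the groups. How often transcript models or their ratios separate the groups across all genes was not counted. Without Dpf3-202 the gene stood at 40.01 ± 2.50 TPM with TubA and 51.3 ± 11.4 TPM in control, a log2 difference of -0.33 over all libraries, -0.53 in set A and -0.06 in set B. The long-coding models ran the other way, at 1.43 ± 0.294 TPM with TubA and 0.987 ± 0.301 TPM in control (log2 difference 0.30), with overlap between the groups. Among them Dpf3-206 stood at 1.26, 0.239, 0, 0.559 and 0.957 TPM in TubA replicates 1 to 5 and was listed at 0 in all 5 control libraries. It has no words of its own, so these values and zeros rest on how shared reads were divided.

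**Figure D2:**
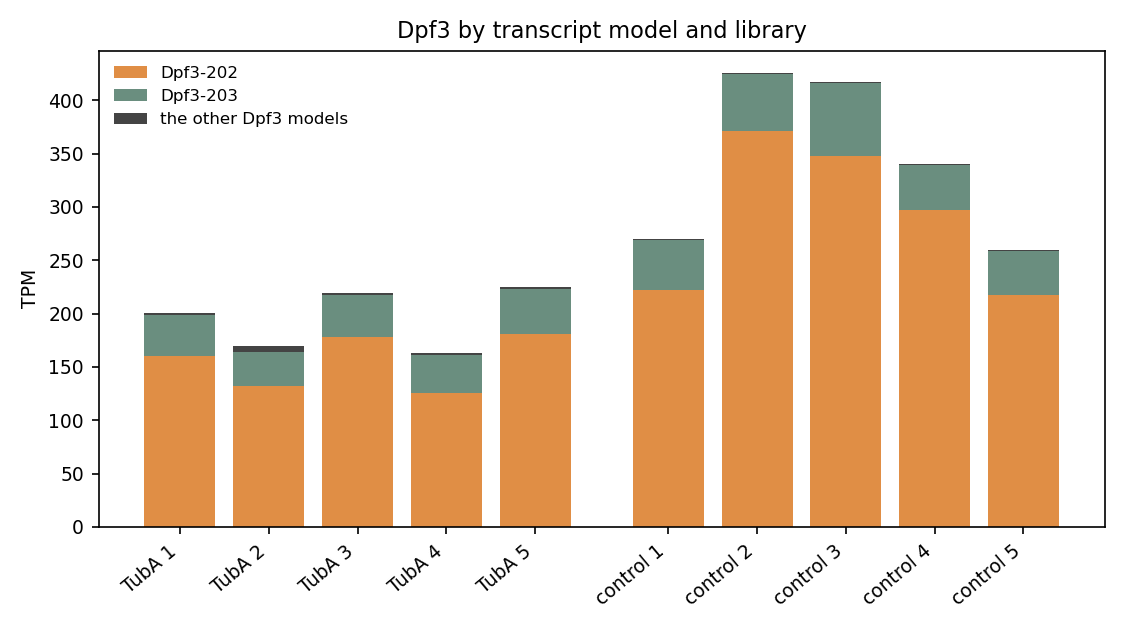
TPM of Dpf3 in each library, 5 TubA bars at the left and 5 control bars at the right, split into Dpf3-202, Dpf3-203 and the other Dpf3 models. The TubA bars reach 163 to 224.5 TPM and the control bars 259 to 425 TPM, and Dpf3-202 makes up most of every bar.

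The paralogs Dpf2 and Dpf1 were lower than Dpf3 as summed. Dpf2, the broadly expressed reader subunit (chromosome 19, 5896516 to 5913010), stood at 12.3, 4.17, 7.93, 30.4 and 16.3 TPM in TubA replicates 1 to 5, against 5.40, 9.28, 21.6, 15.7 and 10.98 TPM in control replicates 1 to 5. The spread within each group was wide and the groups overlapped. Its TPM was split between the coding models Dpf2-202 and Dpf2-205, the decay model Dpf2-201 and, in some libraries, the noncoding Dpf2-209. In TubA replicate 5, Dpf2-209 (370 bases) held 13.1 of 16.3 TPM, but 34.3% when weighted by length. It stood at 2.29 TPM in TubA replicate 1, 2.18 TPM in TubA replicate 4 and 0.596 TPM in control replicate 4, and was at 0 in 6 libraries. Dpf1, the neuronal member of the family (chromosome 7, 29303951 to 29318243), reached at most 1.49 TPM with TubA and 2.05 TPM in control.

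Levels of paralogs were compared within each library, which does not use the treatment, in 5 pairs. Dpf3 exceeded Dpf2 in 10 of 10 libraries, by 4.35 ± 0.895 on the log2(TPM + 1) scale (SD over libraries; exact two-sided paired permutation p = 0.00195, the smallest that 10 libraries allow; 0.00195 adjusted over the 5 pairs). This order turned round when long-coding models alone were summed: Dpf3 then lay below Dpf2 in 10 of 10 libraries, by -1.83 ± 0.625 (exact adjusted p = 0.00244). The long-coding sum was chosen after its values were seen and depends on how shared reads were divided. Its p-values, here and for the pairs below, therefore describe the assigned values and test no planned comparison. Dpf3 exceeded Dpf1 by 7.11 ± 0.903 over all models and by 0.79 ± 0.304 over long-coding models, in 10 of 10 libraries each time (exact adjusted p = 0.00195 and 0.00244). Dpf2 exceeded Dpf1 by 2.77 ± 1.09 (exact adjusted p = 0.00195), and by 2.62 ± 0.687 over long-coding models. Counted in complete coding models as the files assign them, Dpf2 was the most abundant DPF gene, and counted over all models Dpf3 was.

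The ATPase gene Smarca2 showed the same kind of split. It lies on the plus strand of chromosome 19 (26605050 to 26778322), a span of 173 kb. The files list 46 models for it, of which 30 were above 0. Those that start in the last part of the gene, 140 kb or more from its start, held between 74.0% and 96.3% of its TPM. Their share is smaller when weighted by length, since the full-length models are longer. The full-length Smarca2-209 (5862 bases) held 1.34% to 13.5% of the TPM but 5.30% to 45.1% by length. The late-starting Smarca2-246 (1841 bases) held 16.6% to 47.7% of the TPM and 17.4% to 59.5% by length. The late-starting models number 29. Of these, 22 carry the annotation's tag for a start found by CAGE, a method that maps the capped ends of transcripts. Some of the 22, such as Smarca2-210, were listed at 0 in every library. The abundant Smarca2-204, Smarca2-238 and Smarca2-246 carry the tag, and the abundant Smarca2-217, a noncoding model, does not. The most abundant late-starting model was Smarca2-246, with 8 exons. It joins 93 coding bases of its own to the last 735 coding bases of the full-length model Smarca2-201. It lacks the exons upstream, which in the full-length gene encode the ATPase. The sequences below show where the pair join, with the 30 coding bases before the shared exon in capitals and the first 30 bases of that exon (chr19:26751824-26751853, plus strand) in lower case, from the GENCODE M21 transcripts.
Smarca2-201: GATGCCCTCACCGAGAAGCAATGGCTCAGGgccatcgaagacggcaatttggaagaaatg
Smarca2-246: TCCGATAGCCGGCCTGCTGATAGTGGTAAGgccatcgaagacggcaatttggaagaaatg

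The capitals lie at chr19:26720918-26720947 for Smarca2-201 and at chr19:26749918-26749947 for Smarca2-246. Summed, the late-starting models stood at 178, 70.9, 84.7, 468 and 159.7 TPM in TubA replicates 1 to 5, against 46.2, 242, 177, 285 and 237 TPM in control replicates 1 to 5. They ranged 10.1-fold over the 10 libraries, and the groups overlapped widely. They were lowest in TubA replicate 2 and control replicate 1, the libraries lowest in Zp1, Zp2 and Zp3, and highest in TubA replicate 4, which was highest in those genes; the part of this in the Smarca2 values was not tested. The other Smarca2 models, with the full-length ones among them, ranged 2.46-fold, from 13.5 to 29.8 TPM with TubA and from 16.2 to 33.2 TPM in control. The long-coding models Smarca2-201, Smarca2-209 and Smarca2-216 stood at 13.3 ± 3.97 TPM with TubA and 14.2 ± 3.34 TPM in control (SD, n = 5 each), and most of this was Smarca2-209. Only 1.94% to 3.69% of the words of these models are in no Smarca2 model outside the long-coding ones, so this split too rests on how shared reads were divided. An antisense gene, 4931403E22Rik, shares 40 exonic bases with Smarca2 and was listed at 0 in every library.

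Smarca4, encoding the other ATPase (chromosome 9, 21616169 to 21704230), had the narrowest relative range of the 10 genes. It stood at 12.6, 11.8, 9.41, 12.9 and 11.9 TPM in TubA replicates 1 to 5, against 8.30, 11.8, 12.9, 12.8 and 9.95 TPM in control replicates 1 to 5. Between 92.3% and 100% of this was in long-coding models, with Smarca4-204 the main one. Over all models Smarca4 lay below Smarca2 in 10 of 10 libraries, by -3.89 ± 0.783 log2 units (exact adjusted p = 0.00195). Over long-coding models the gap shrank to -0.24 ± 0.299, with Smarca4 lower in 8 of 10 libraries (exact two-sided paired permutation, adjusted p = 0.0352). The full-length models of Smarca4 stood at 8.30 to 12.9 TPM over the 10 libraries and those of Smarca2 at 9.03 to 19.1 TPM, ranges that overlap.

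**Figure D3:**
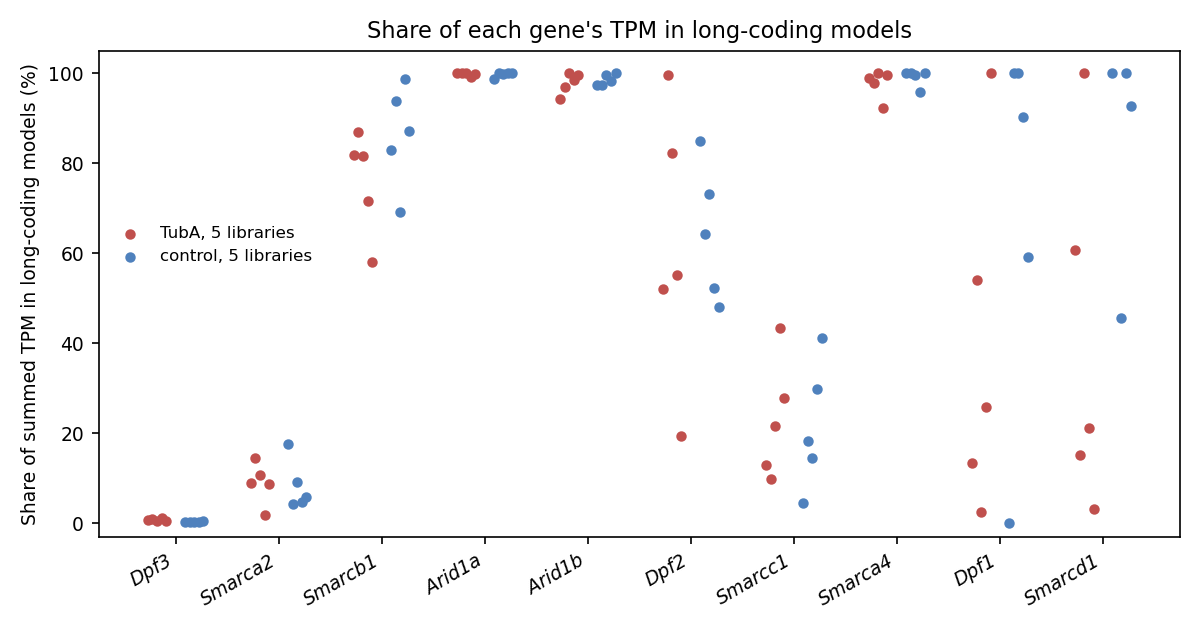
Share of each gene's summed TPM held by its long-coding models, in percent, per library, with TubA points left of control points for each gene and genes ordered by mean level. Dpf3 stays at or under 1.11% and Smarca2 at or under 17.6%, while Arid1a, Arid1b and Smarca4 stay at or above 92.3%; a library with the gene at 0 has no point.

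The ARID genes, whose products define canonical BAF and bind DNA, were nearly all in long-coding models (at least 98.7% for Arid1a and 94.2% for Arid1b). Arid1a (chromosome 4, 133679008 to 133756769) stood at 25.1 to 47.8 TPM with TubA and 31.9 to 42.7 TPM in control. Arid1b (chromosome 17, 4994332 to 5347656) stood at 13.6 to 21.2 TPM with TubA and 12.2 to 20.8 TPM in control. Arid1a exceeded Arid1b in 10 of 10 libraries, by 1.19 ± 0.495 log2 units over all models and 1.21 ± 0.487 over long-coding ones (exact adjusted p = 0.00195 and 0.00244). In most libraries Arid1a was listed under Arid1a-205, but control replicate 3 had 8.14 TPM in that model and 22.3 TPM in Arid1a-201.

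Of the 3 core genes among the 10, Smarcb1 was the most abundant. Smarcb1 (chromosome 10, 75896769 to 75921617) stood at 29.04 to 52.3 TPM with TubA and 34.96 to 51.3 TPM in control, mainly as Smarcb1-202. Smarcc1, a scaffold subunit (chromosome 9, 110117708 to 110240178), stood at 10.7 to 15.3 TPM with TubA and 9.72 to 21.7 TPM in control. Between 55.3% and 95.6% of it was in Smarcc1-208, a model annotated as a retained intron, and its long-coding models held 1.06 to 4.96 TPM with TubA and 0.754 to 4.01 TPM in control. Smarcd1 (chromosome 15, 99702129 to 99713991) was hardly detected, at 0.0467 to 1.65 TPM with TubA and at most 0.546 TPM in control, where replicate 2 was listed at 0. Its paralog Smarcd2, which was not among the 10, stood at 75.9 to 227 TPM with TubA and 62.3 to 136.9 TPM in control.

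By mean level over all models the order was Dpf3, Smarca2, Smarcb1, Arid1a, Arid1b, Dpf2, Smarcc1, Smarca4, Dpf1 and Smarcd1. The ranges over the 10 libraries fell into groups. Dpf3 (163 to 425 TPM) and Smarca2 (62.4 to 486 TPM) overlapped each other and lay above all the rest. Smarcb1 and Arid1a overlapped, as did Arid1b, Dpf2, Smarcc1 and Smarca4, and Dpf1 overlapped Smarcd1. Smarcb1 and Arid1a were not fully apart from Dpf2, which reached 30.4 TPM in TubA replicate 4. In mean level Dpf3 lay above 94.5% and Smarca2 above 93.1% of the genes tested, and Smarca4 above 49.5%.

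**Figure D4:**
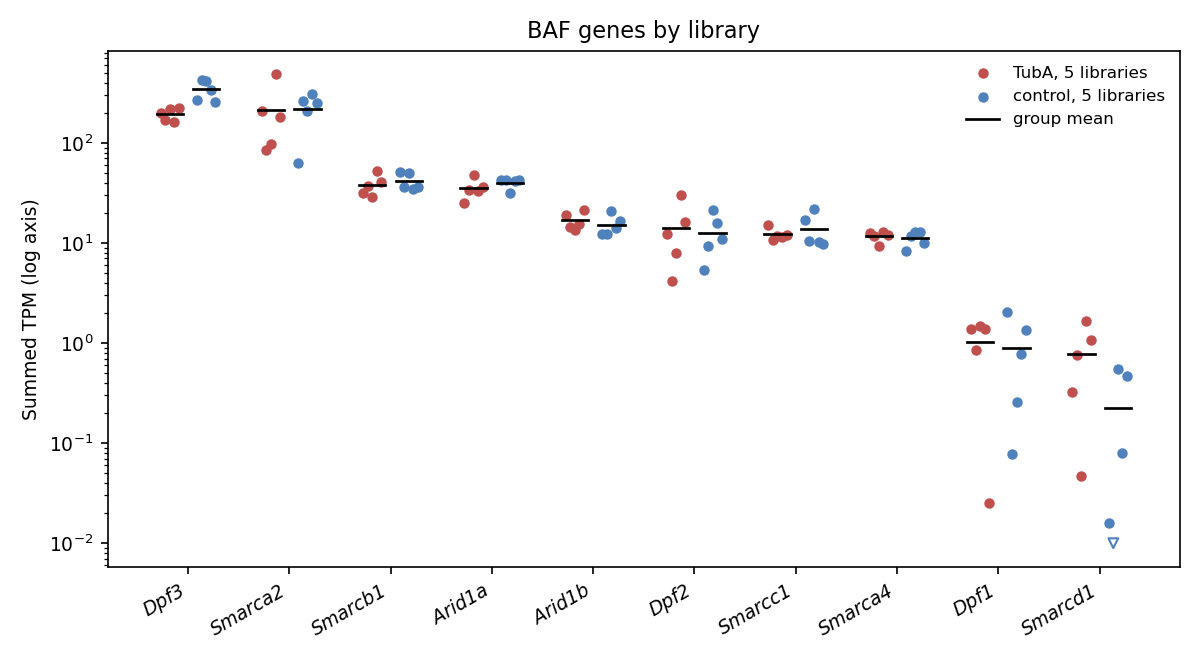
Summed TPM of the 10 genes in each library on a log axis, TubA points left of control points, with black lines for the group means (n = 5 each); the open triangle is Smarcd1 in control replicate 2, listed at 0 and drawn at the axis floor of 0.01. In Dpf3 every TubA point lies below every control point, and in the other 9 genes the groups overlap.

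Apart from Dpf3, none of the 10 genes separated TubA from control. The limma fit, a linear model over all genes with shared estimates of spread, took 8 of them, since Dpf1 and Smarcd1 averaged under 1 TPM, and none passed a Benjamini-Hochberg adjusted p of 0.05. Across all 11664 genes tested, 1 passed, or 0.00857%. At an unadjusted p under 0.05 stood 1 of the 8 genes (Dpf3) and 293 of the 11664 genes tested. Groups that did not overlap, lower with TubA, were found for 1 of the 8 and for 31 of all genes, or 0.266%; higher with TubA they were found for none of the 8 and for 22 of all genes, or 0.189%. Since Dpf3 was picked for this contrast, its count is read no further.

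The log2 differences of the other 7 tested genes lay between -0.21 (Arid1a, standard error 0.21) and 0.14 (Arid1b, standard error 0.23). Smarca4 differed by 0.07 (standard error 0.22), Smarcb1 by -0.14 (0.22) and Smarcc1 by -0.10 (0.27), each less than its standard error. Smarca2 differed by -0.16 and Dpf2 by 0.03, with standard errors of 0.51 and 0.47, so that these 2 were only loosely fixed. The difference of Smarca2 was -0.53 without TubA replicate 4, -0.56 without control replicate 1 and 0.10 without TubA replicate 2. That of Dpf2 was 0.36 without TubA replicate 2 and -0.29 without TubA replicate 4, and -0.46 in set A against 0.26 in set B. Smarcb1 (-0.41 in set A, 0.15 in set B) and Smarcc1 (-0.27 in set A, 0.21 in set B) also differed in sign between the sets. Over these 7 genes, without Dpf3, 4 differences were negative, with a median of -0.10, beside 48.6% negative and a median of 0.0097 over all genes tested.

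**Figure D5:**
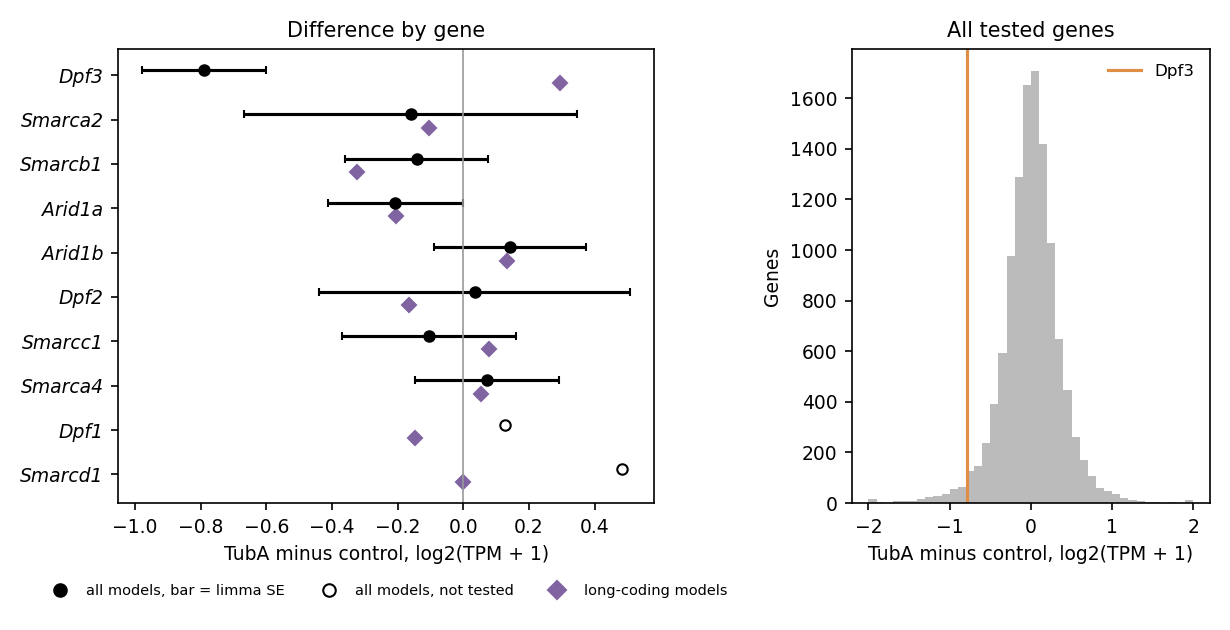
Left, log2(TPM + 1) difference, TubA minus control, of each gene over all models (circles, with bars of 1 limma standard error where tested) and over long-coding models (diamonds). Right, the same difference for all 11664 genes tested as a histogram, with values beyond 2 in either direction placed in the end bins; Dpf3 lies at -0.79 over all models and at 0.30 over long-coding ones.

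The remaining genes of the BAF family showed no member past the test either. Of 20 other genes of BAF, PBAF and ncBAF, 15 were tested and 0 passed (limma; also 0 at an unadjusted p under 0.05), with 8 negative differences and a median of -0.02. The most abundant was Bcl7c, a small accessory subunit, at 860.1 ± 351 TPM with TubA and 864 ± 266 TPM in control. Smarcd2 stood at 119.5 ± 62.4 and 109.9 ± 32.4 TPM, TubA first, and the bromodomain gene Brd7 of PBAF at 104 ± 15.8 and 103 ± 22.1 TPM. Ss18 stood at 74.04 ± 9.44 TPM with TubA and 68.5 ± 10.6 TPM in control, and Bcl7b at 50.96 ± 11.9 and 54.85 ± 12.5 TPM. The differences ran from -0.47 (Smarce1) to 0.21 (Pbrm1).

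No ATPase of another remodelling family passed either. Of 16 such genes, 14 were tested and 0 passed (limma; 0 at an unadjusted p under 0.05), with 6 negative differences and a median of 0.07. Atrx stood at 591 ± 127.5 TPM with TubA and 518 ± 199 TPM in control, Ep400 at 135 ± 29.6 and 149 ± 63.5 TPM, and Chd9 at 146 ± 137 and 123.5 ± 56.7 TPM (SD, n = 5 each). Hdac6, the known target of tubastatin A, stood at 5.60 ± 3.20 TPM with TubA and 4.34 ± 2.66 TPM in control, within its spread.

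Genes with a profile like that of Dpf3 were looked up among 5836 candidates. Candidates averaged 10 TPM or more, with Dpf3 itself, pseudogenes and predicted or clone-named loci left out. The 5 most like Dpf3 over the 10 libraries were taken by the root mean square difference of log2 values centred on each gene's own mean. They were Gata4, a GATA transcription factor, at 0.18 log2 units, Edem3, which acts in the disposal of misfolded glycoproteins, at 0.25, the ubiquitin ligase gene Ube3a at 0.26, Fam110b at 0.275 and mt-Nd3, a mitochondrial subunit of respiratory complex I, at 0.29. The median over the candidates was 0.62. The profile includes the treatment, so likeness here partly restates the lower TubA values. Gata4 stood at 39.0 ± 7.67 TPM with TubA and 58.5 ± 12.7 TPM in control and overlapped between the groups. Strand is not known, so reads of Ube3a cannot be told from those of its antisense partner, and mt-Nd3 has nuclear copies that make its level uncertain. Of the 10 BAF genes, Dpf3 was not a candidate, and Dpf1 and Smarcd1 averaged under 10 TPM. None of the others was among these 5.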

How the data were processed

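The authors deposited TPM by Ensembl transcript, with each library summing to 1000000. The submitters' processing notes name mm10 and Bowtie 0.12.2. How abundances were estimated, and on which annotation, is not given in the sources used here. Values down to 3.18e-11 TPM occur, as from estimation, so reads shared by models of a gene were divided by an unknown rule, and no depth or counting interval can be given. Transcripts were matched to GENCODE M21 of GRCm38 (113492 matched, 1778 not, with 0.531% to 0.753% of the TPM) and summed per gene (Python 3.11.15, pandas 2.3.3). TubA and control were compared with limma 3.58.1 (R 4.3.3; trend, robust) on log2(TPM + 1), pseudocount 1, for genes averaging 1 TPM or more, without covariates, with Benjamini-Hochberg adjustment over all of them. The fit was tested on simulated data. Differences on this scale understate low genes. Paralog levels were compared by exact sign flips within libraries (scipy 1.17.1). Transcripts are named at 10% or more of a gene's TPM in either group, other family genes by abundance, beside the 5 genes most like Dpf3 and Hdac6. Models named outside that rule (Dpf3-201, Dpf3-205 to Dpf3-207, Smarca2-201, Smarca2-209, Smarca2-216), Smarce1 and Pbrm1 were chosen after their values were seen, as was the sum over long-coding models. The members and lists were chosen with earlier results of these data known.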

Additional observations from a re-analysis of the deposited data

Results flagged for a closer look

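In 18 of 104 groups of 5 libraries examined (52 genes and transcript models), 1 library stood far from the other 4. Chance gives about 1 in 20 independent groups of normally distributed values. The criterion was applied to TPM without logs, whose distribution was not checked, so 18 of 104 is not read as an excess. The groups were not independent, since 14 of the 18 were transcript models, often of the same gene, and in 4 of the 18 the other libraries were all listed at 0, which meets the criterion by construction. Among the genes, Smarcc1 was high in TubA replicate 1 at 15.3 TPM (next 11.97 TPM), and Arid1a was low in control replicate 3 at 31.9 TPM (next 41.8 TPM). TubA replicate 4 was high in Smarcd2 at 227 TPM (next 117 TPM) and in Chd9 at 389 TPM (next 114 TPM). It was also high in the models Smarca2-246 at 232 TPM, Smarca2-217 at 137.7 TPM, Arid1a-201 at 8.79 TPM, Dpf2-202 at 7.94 TPM and Smarcd1-206 at 0.746 TPM. Control replicate 3 was high in Arid1a-201 at 22.3 TPM, Arid1b-207 at 16.8 TPM and Smarcd1-206 at 0.298 TPM, and low in Arid1a-205 at 8.14 TPM. TubA replicate 5 was high in Dpf2-209 at 13.1 TPM and in Smarcd1-202 at 1.04 TPM. Control replicates 1, 4 and 5 were each high once, in Dpf1-209 at 2.05 TPM, Dpf2-209 at 0.596 TPM and Smarcd1-205 at 0.0343 TPM. Dpf3 and its models at 10% or more of its TPM were examined, and none was among these. Its other models were not examined. Of those, Dpf3-201 was listed at 4.11 TPM in TubA replicate 2 and at no more than 2.37e-04 TPM in any other TubA library.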

How the results depend on the processing

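None of the BAF genes passed in any of the 22 other limma settings tried. The count over all genes, 1 as reported, was 0 among genes averaging 5 TPM or more, 0 with protein-coding transcripts alone and 0 in library set B alone, and 12 in set A alone. With the replicate number as a block it was 0; same-numbered libraries deviated together in replicates 4 and 5 (correlations 0.476 and 0.258) but not in replicates 1 to 3 (-0.308 to 0.00308), so pairing by number was not established. In those 22 settings, which refit the contrast that picked Dpf3, its difference lay between -0.98 and -0.57. It was -0.88 to -0.70 in those that left out single libraries. These values describe that contrast and lend it no support. Over long-coding models, a choice made after the data were seen, the difference was 0.30. The paralog pairs kept direction and call without any single library, with a pseudocount of 0.1 and with protein-coding transcripts alone. The 5 libraries of a group cannot go below an exact p of 0.063, so calls end there. In TubA and control libraries alone the log2 differences were 3.94 and 4.76 for Dpf3 minus Dpf2, 6.66 and 7.57 for Dpf3 minus Dpf1, 2.72 and 2.82 for Dpf2 minus Dpf1, -3.78 and -4.01 for Smarca4 minus Smarca2, and 1.01 and 1.36 for Arid1a minus Arid1b. Over long-coding models Dpf3 minus Dpf2 was -1.83. Depth is unknown, so levels near 1 TPM rest on an unknown number of reads.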
